A study of Homo sapiens with 16 samples.

Results

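The genes described are 10 genes that answer to, or regulate, the transcriptional coactivators YAP and TAZ and their DNA-binding partners, the TEAD factors. They were chosen by symbol and are 10 of the 61806 genes in the deposited table: YAP1, WWTR1, AMOTL1, AMOTL2, AJUBA, LATS2, NUAK2, ANKRD1, CRIM1 and AXL. Their mRNA was measured by poly(A) sequencing in 16 libraries of LX-2 cells, which descend from human hepatic stellate cells and grow as an immortal line. All cells were in culture for 24 h and were then given 100 ng/mL of the cytokine TWEAK or its PBS vehicle for 2 h. The 4 groups, each of 4 biological replicates, were wild-type LX-2 with PBS (WT), wild-type LX-2 with TWEAK, LX-2 with a CRISPR/Cas9 knockout of Fn14α and LX-2 with a CRISPR/Cas9 knockout of total Fn14. Both knockout groups received PBS, so no library combines a knockout with TWEAK. Fn14, the product of TNFRSF12A, is the receptor of TWEAK, and Fn14α is the isoform of it named in the labels. Each knockout forms a separate line, and the sources used here give neither whether it came from 1 clone nor how the biological replicates were separated. The p-values therefore measure the spread between these samples, which may be technical.

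YAP and TAZ, encoded by YAP1 and WWTR1, carry mechanical and growth signals to the nucleus, where they bind TEAD factors and switch on target genes. The Hippo kinases, ending with LATS1 and LATS2, phosphorylate both proteins and hold them in the cytoplasm. Angiomotins act on the same step, whereas AJUBA inhibits LATS kinases. Several of the inhibitors of YAP and TAZ are themselves their targets, which forms a negative feedback loop. In the liver, YAP and TAZ are known for their part in the activation of stellate cells, the cells that deposit scar matrix.

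The upstream regions of ANKRD1 and NUAK2 are shown because the level of these genes moved over the widest range. Both are the 250 bases before the annotated start in RefSeq (GRCh38.p14), written in the direction of transcription. Capitals mark matches on either strand to GGAATG, the TEAD motif, or TGANTCA, a pattern for AP-1 with any base at N. A TEAD match on the other strand reads CATTCC.
ANKRD1: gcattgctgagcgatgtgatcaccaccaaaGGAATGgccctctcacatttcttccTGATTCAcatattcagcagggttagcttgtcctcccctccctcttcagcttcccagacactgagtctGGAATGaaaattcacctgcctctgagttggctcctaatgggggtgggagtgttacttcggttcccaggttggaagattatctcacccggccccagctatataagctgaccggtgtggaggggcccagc
NUAK2: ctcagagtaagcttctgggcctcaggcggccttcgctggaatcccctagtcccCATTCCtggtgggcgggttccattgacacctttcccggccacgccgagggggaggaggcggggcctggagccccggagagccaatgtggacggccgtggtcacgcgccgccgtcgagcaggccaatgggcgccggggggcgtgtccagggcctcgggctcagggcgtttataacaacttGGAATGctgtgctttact
The ANKRD1 region lies at chr10:90921088-90921337 on the minus strand. It holds the TEAD motif at 220 to 215 and at 128 to 123 bases before the start. Between them, at 195 to 189, lies TGATTCA, a match to the AP-1 pattern with T at N. Whether AP-1 binds there was not tested. The NUAK2 region lies at chr1:205321746-205321995, also on the minus strand, with the TEAD motif at 197 to 192 and at 18 to 13 bases before the start. Of the 10 genes, 9 had an entry in the RefSeq promoter table and CRIM1 had none. The TEAD motif was in at least 1 upstream region of 6 of these 9 genes (NUAK2, AMOTL2, ANKRD1, YAP1, AJUBA and AXL). The 9 genes had 13 regions in all, and 14.3% of the 27305 genes in the table had the motif. AMOTL2, AJUBA and AXL each also had a region without it. For YAP1 and LATS2, the bases after the start were not found in the GENCODE transcripts of the gene. The genes were listed as YAP and TEAD responsive, so this share is no separate test of that. ANKRD1 was the 1 gene with a match to the AP-1 pattern, which 6.57% of the 35116 regions held. A single strict pattern for NF-kB, searched on both strands, was present in 1.40% of the regions and matched in 0 of the 9 genes. This says only that the pattern used is not in the windows. Looser or shorter NF-kB patterns were not searched, so sequences of that type may still be present, including in the NUAK2 region.

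Total counts per library ran from 13335919 to 16888606, and all 10 genes passed the filter on low counts that left 16029 genes for testing. Levels are given as FPKM, reads per length of exon and per library size, scaled between libraries by TMM factors, which set the bulk of genes equal. TNFRSF12A averaged 125 ± 5.32 (SD, n = 4) TMM-scaled FPKM in WT and 133 ± 6.97 with TWEAK. It fell to 56.6 ± 6.40 in the Fn14α knockout and 35.6 ± 3.08 in the Fn14 knockout, so the knockout libraries still held 45.2% and 28.5% of its WT mRNA. On a principal component that carried 5.43% of the variance, replicate 4 of WT and replicate 1 of the Fn14 knockout stood away from their groups, and results that change without them are given where they occur. VIM and COL1A1, both stellate markers, averaged 369 and 130 TMM-scaled FPKM in WT, whereas LRAT and DES, which mark quiescent or contractile stellate cells, stayed at or below 0.26 FPKM in every library. Summed deposited FPKM were at most 3.12 for 6 hepatocyte markers, with TTR at 0 in all libraries, 2.08 for 6 endothelial markers and 2.10 for 5 leukocyte markers. The sum of 5 cholangiocyte markers was 5.19 to 6.29 in WT and 11.3 to 12.8 in the Fn14 knockout, where SOX9 made up nearly all of it and EPCAM stayed at or below 0.05. The part of these differences in the results was not tested. In bulk samples, fewer cells of a type and less RNA per cell cannot be told apart.

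TWEAK raised 5 of the 10 genes within 2 h, with NUAK2 far ahead of LATS2, AMOTL1, AMOTL2 and AXL. It lowered 0 of them in edgeR, also at an unadjusted p under 0.05, and 0 in DESeq2 and limma. The Fn14α knockout had 6 genes above WT and 2 below it, and the Fn14 knockout had 7 above and 2 below, led in both by ANKRD1. Calls were made at an adjusted p under 0.05 in edgeR's quasi-likelihood test with Benjamini-Hochberg adjustment over 16029 genes. Over all genes tested, the same rule called 6.87% with TWEAK (4.82% higher and 2.05% lower), 42.2% in the Fn14α knockout (20% higher and 22.2% lower) and 52.9% in the Fn14 knockout (26.6% higher and 26.3% lower). Set directly against each other, the knockouts differed in 9 of the 10 genes, 6 higher and 3 lower in the Fn14 knockout, where 59.2% of all genes were called, 30.7% higher and 28.5% lower. The median log2 difference of the 10 genes was 0.28 with TWEAK, 0.39 in the Fn14α knockout, 0.48 in the Fn14 knockout and 0.27 between the knockouts, with medians over all genes of -0.01, 0.01, -0.01 and -0.0003. In each comparison the genes that were called were those whose groups did not overlap in TMM-scaled FPKM. Over all genes, groups did not overlap for 15.8% with TWEAK, 39.4% in the Fn14α knockout, 42.9% in the Fn14 knockout and 51% between the knockouts. This match depended on the scaling. In the deposited FPKM, groups overlapped for AMOTL1 with TWEAK and for YAP1, AMOTL1, AMOTL2 and AXL between the knockouts, although all were called. There WWTR1 with TWEAK and AJUBA between the knockouts did not overlap, although neither was called. The first 3 comparisons share the WT libraries, and the last shares the knockout libraries with them.

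**Figure D1:**
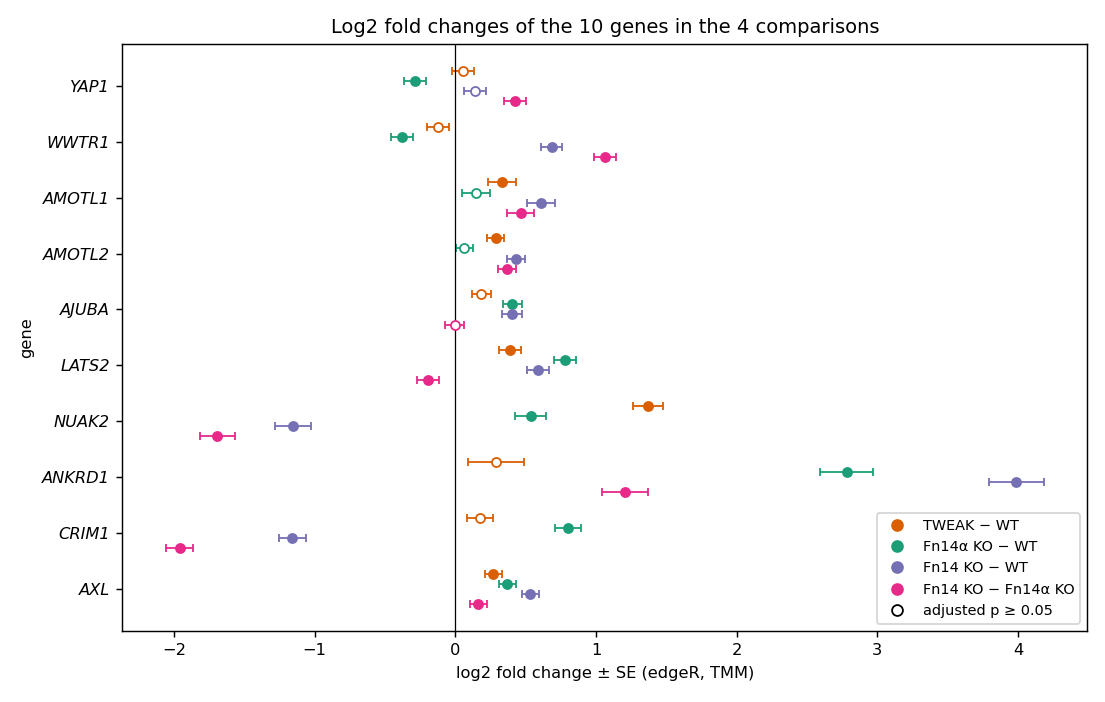
Log2 fold changes (x axis, ± SE from edgeR) of the 10 genes (y axis) in the 4 comparisons, with filled points for an adjusted p under 0.05. ANKRD1 lies farthest to the right in both knockouts against WT, at 2.78 and 3.99, while NUAK2 and CRIM1 lie left of 0 in the Fn14 knockout at -1.15 and -1.16.

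Gene positions come from the deposited table, and the submitters' processing notes name GRCh38.p13 as the build. Of the coactivators, WWTR1 (chr3:149517235-149736714, minus strand), which encodes TAZ, moved further than YAP1. WWTR1 stood at 8.64, 9.06, 9.20 and 10.1 TMM-scaled FPKM in WT, 8.98, 8.38, 8.26 and 8.44 with TWEAK, 7.76, 6.08, 7.26 and 7.39 in the Fn14α knockout and 15.1, 14, 13.8 and 16.7 in the Fn14 knockout. The Fn14 knockout was above and the Fn14α knockout below every WT library, and TWEAK overlapped WT. WWTR1 fell by 0.38 ± 0.08 (log2, SE) in the Fn14α knockout (edgeR adjusted p = 0.000389) and rose by 0.69 ± 0.08 in the Fn14 knockout (adjusted p = 6.22e-08). Its difference with TWEAK was -0.12, with a 95% interval of -0.29 to 0.05 (adjusted p = 0.400).

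YAP1 itself (chr11:102110447-102233424, plus strand) stayed within a narrow range. Its level was 24.2, 25, 21.7 and 21.6 TMM-scaled FPKM in WT, 25.5, 22.8, 25.1 and 22.5 with TWEAK, 20, 18.2, 18.4 and 19.2 in the Fn14α knockout and 22.2, 24.2, 25.4 and 30 in the Fn14 knockout. The Fn14α knockout lay below every WT library, and the other groups overlapped WT. YAP1 fell by 0.28 ± 0.08 (log2) in the Fn14α knockout (edgeR adjusted p = 0.00566). In the Fn14 knockout its difference from WT was 0.14 ± 0.08 (adjusted p = 0.145), and this value passed the threshold without Fn14 knockout replicate 1 (0.20, adjusted p = 0.0247) and without both libraries that stood away from their groups (0.17, adjusted p = 0.0428), over a range of 0.0247 to 0.891 among the alternatives. With TWEAK the difference was 0.05, with an interval of -0.12 to 0.22. The level of WWTR1 relative to YAP1, per length, averaged 0.403 ± 0.053 (SD, n = 4) in WT, 0.356 ± 0.021 with TWEAK, 0.375 ± 0.028 in the Fn14α knockout and 0.590 ± 0.062 in the Fn14 knockout. The lowest Fn14 knockout library, at 0.542, was above the highest library of the other groups, at 0.469. Between the knockouts, WWTR1 differed by 1.06 ± 0.08 (adjusted p = 3.42e-11) and YAP1 by 0.42 ± 0.08 (adjusted p = 7.04e-05), both higher in the Fn14 knockout.

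**Figure D2:**
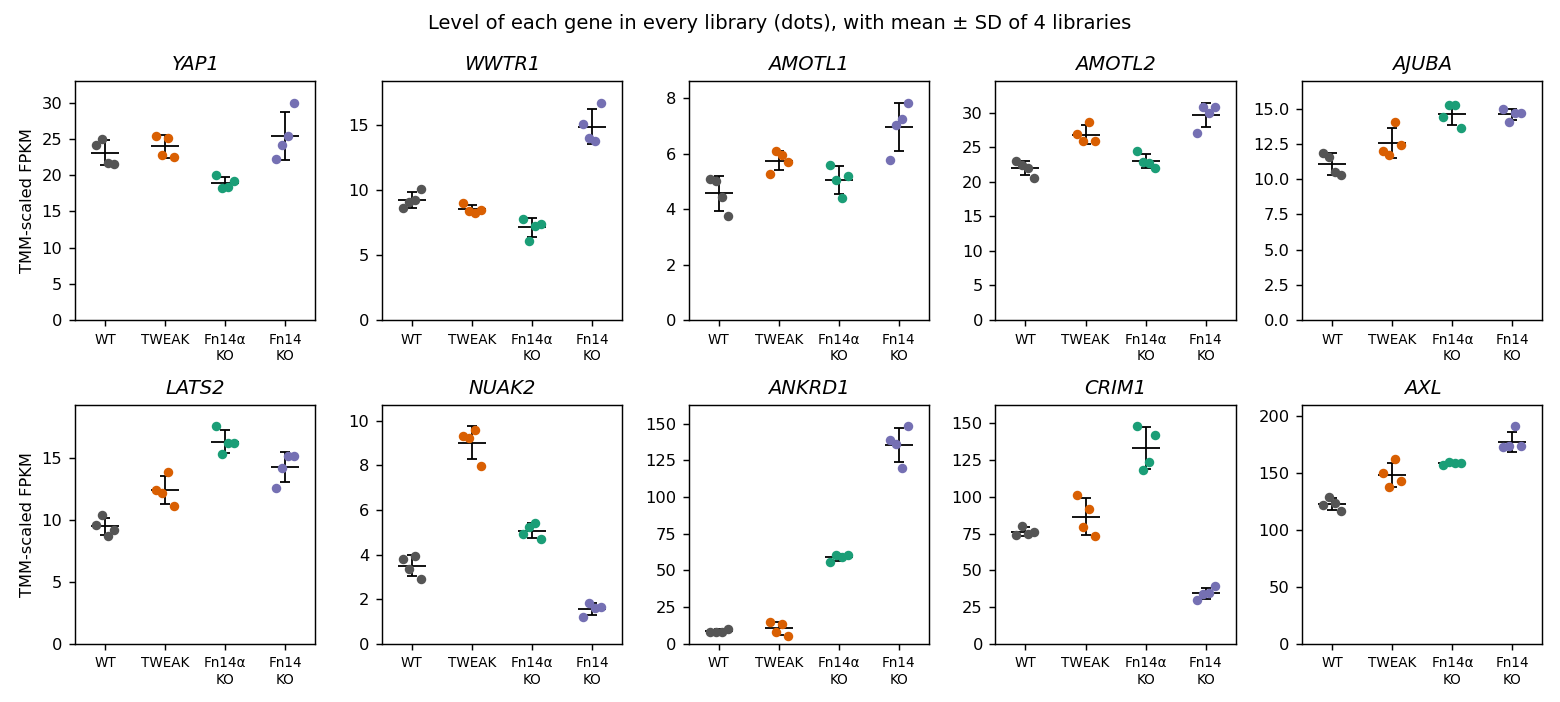
TMM-scaled FPKM (y axes, linear from 0) of each gene in every library (dots) of the 4 groups, with the mean and SD of 4 libraries as bars. The Fn14 knockout libraries are the highest of all for ANKRD1 (120 to 148) and the lowest for NUAK2 (1.18 to 1.84) and CRIM1 (30 to 39.2).

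Among the inhibitors, LATS2 (chr13:20973036-21061586, minus strand), the kinase that phosphorylates YAP and TAZ and is also one of their targets, was above WT in all 3 other groups. It stood at 9.62, 10.4, 8.73 and 9.19 TMM-scaled FPKM in WT, 12.4, 12.2, 13.9 and 11.1 with TWEAK, 17.5, 15.3, 16.2 and 16.2 in the Fn14α knockout and 12.6, 14.2, 15.2 and 15.1 in the Fn14 knockout. No library of those 3 groups was as low as the highest WT library. LATS2 rose by 0.39 ± 0.08 (log2) with TWEAK (edgeR adjusted p = 0.00196), by 0.78 ± 0.08 in the Fn14α knockout (adjusted p = 1.85e-08) and by 0.59 ± 0.08 in the Fn14 knockout (adjusted p = 8.82e-07). The Fn14 knockout was lower than the Fn14α knockout by a log2 difference of -0.20 (adjusted p = 0.0328). That last call ended without Fn14α knockout replicate 1 (adjusted p = 0.110) or 4 (0.0532), without Fn14 knockout replicate 1 (0.108) or 2 (0.0649), without both libraries that stood away from their groups (0.0735), with no filter on low counts (0.0764) and with the replicate number as a block (0.0518). Under total-count scaling the same difference was -0.35 (adjusted p = 0.000574).

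The angiomotins AMOTL1 (chr11:94706431-94876748, plus strand) and AMOTL2 (chr3:134355347-134375479, minus strand) bind YAP and keep it at junctions and the cytoskeleton. AMOTL2 had 23.1, 22.4, 22.1 and 20.5 TMM-scaled FPKM in WT, 27, 25.9, 28.7 and 25.9 with TWEAK, 24.5, 22.9, 22.7 and 22 in the Fn14α knockout and 27.1, 30.8, 30 and 30.9 in the Fn14 knockout. TWEAK and the Fn14 knockout were above every WT library, and the Fn14α knockout overlapped WT. AMOTL2 rose by 0.29 ± 0.06 (log2) with TWEAK (edgeR adjusted p = 0.00388) and by 0.43 ± 0.06 in the Fn14 knockout (adjusted p = 2.75e-06), with a difference of 0.06 in the Fn14α knockout (adjusted p = 0.432). AMOTL1 ran from 3.74 to 5.11 TMM-scaled FPKM in WT libraries, 5.29 to 6.09 after TWEAK, 4.39 to 5.58 in the Fn14α knockout and 5.78 to 7.84 in the Fn14 knockout. It rose by 0.61 ± 0.10 in the Fn14 knockout (adjusted p = 1.32e-05), and its difference in the Fn14α knockout was 0.15 (adjusted p = 0.251). With TWEAK its rise of 0.33 ± 0.10 passed narrowly (adjusted p = 0.0429) and did not pass in 10 of 18 alternatives, over a range of adjusted p from 0.00490 to 0.155. Those 10 included leaving out WT replicate 3 (0.0979) or 4 (0.155) and TWEAK replicate 2 (0.117), 3 (0.123) or 4 (0.0786), the replicate block (0.0805), total counts (0.103), both limma fits (0.143 and 0.144) and the median of chromosomal neighbours as an offset (0.0660). Between the knockouts, AMOTL1 differed by 0.46 and AMOTL2 by 0.37, both higher in the Fn14 knockout. Per length, AMOTL2 mRNA stood 4.86 ± 0.47 (SD, n = 4) times as high as AMOTL1 in WT, and between 4.29 and 4.68 times on average in the other groups.

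AJUBA (chr14:22971177-22982551, minus strand), a LIM protein that inhibits LATS kinases, was higher in both knockouts. It ran from 10.3 to 11.8 TMM-scaled FPKM in WT libraries, 11.7 to 14.1 after TWEAK, 13.6 to 15.3 in the Fn14α knockout and 14.1 to 14.9 in the Fn14 knockout. Both knockouts were above every WT library, and TWEAK overlapped WT. It rose by 0.41 ± 0.07 (log2) in the Fn14α knockout (edgeR adjusted p = 4.33e-05) and by 0.40 ± 0.07 in the Fn14 knockout (adjusted p = 2.91e-05, and 0.27 with limma on log2(FPKM + 1)). The difference between the knockouts was -0.0032, with an interval of -0.15 to 0.15, and the TWEAK difference was 0.19 (adjusted p = 0.115).

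NUAK2 (chr1:205302063-205321745, minus strand), a kinase of the AMPK family that is a YAP target and promotes YAP activity, had the largest response to TWEAK among the 10 genes. It stood at 3.81, 3.36, 3.92 and 2.92 TMM-scaled FPKM in WT, 9.30, 9.24, 9.58 and 7.96 with TWEAK, 4.90, 5.25, 5.42 and 4.72 in the Fn14α knockout and 1.18, 1.84, 1.58 and 1.65 in the Fn14 knockout. The 4 groups were fully separate, with TWEAK highest, then the Fn14α knockout, WT and the Fn14 knockout. NUAK2 rose 2.58-fold with TWEAK (log2 1.37 ± 0.11, edgeR adjusted p = 1.36e-09), which ranked it 106 by size of change among 16029 genes. In the Fn14α knockout it rose by 0.54 ± 0.11 (adjusted p = 0.000337), and in the Fn14 knockout it fell by 1.15 ± 0.13 (adjusted p = 3.95e-08). The knockouts differed by -1.69 ± 0.12, lower in the Fn14 knockout (adjusted p = 2.75e-11). NUAK2 also had the fewest reads of the 10 genes, 56 to 506 counts per library.

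ANKRD1 (chr10:90912096-90921087, minus strand), a muscle ankyrin repeat protein and one of the most used readouts of YAP and TEAD activity, moved furthest of the 10 genes in both knockouts. Its level was 8.27, 7.93, 7.74 and 10.3 TMM-scaled FPKM in WT, 55.7, 60.6, 58.9 and 60.3 in the Fn14α knockout and 139, 136, 120 and 148 in the Fn14 knockout. The 3 groups were separated by gaps wider than the range inside each of them. ANKRD1 rose 6.88-fold in the Fn14α knockout (log2 2.78 ± 0.19, edgeR adjusted p = 9.21e-10) and 15.9-fold in the Fn14 knockout (3.99 ± 0.19, adjusted p = 2.81e-12). The Fn14 knockout was also above the Fn14α knockout, by 1.21 ± 0.17 (adjusted p = 4.45e-06). By size of change it ranked 129 of 16029 genes in the Fn14α knockout and 269 in the Fn14 knockout.

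With TWEAK, ANKRD1 stood at 14.7, 8.04, 13.2 and 5.54 TMM-scaled FPKM in replicates 1 to 4. Replicates 1 and 3 were above every WT library, replicate 4 was below every one, and replicate 2 lay among them. The log2 difference from WT was 0.29, with an interval of -0.15 to 0.73 (edgeR adjusted p = 0.444), and leaving out each library in turn gave 0.08 to 0.49. The SD of ANKRD1 was 4.32 with TWEAK and 1.16 in WT.

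CRIM1 (chr2:36355778-36551135, plus strand), a membrane protein with cysteine-rich repeats that binds bone morphogenetic proteins, moved in opposite directions in the knockouts. It stood at 74.3, 80.4, 74.6 and 76.3 TMM-scaled FPKM in WT, 101, 79.3, 91.9 and 73.2 with TWEAK, 148, 118, 124 and 142 in the Fn14α knockout and 30, 33.5, 34.3 and 39.2 in the Fn14 knockout. Every Fn14α knockout library was above and every Fn14 knockout library below WT, while TWEAK overlapped WT, with its replicates 1 and 3 again the high ones. CRIM1 rose by 0.80 ± 0.09 (log2) in the Fn14α knockout (edgeR adjusted p = 2.73e-07) and fell by 1.16 ± 0.09 in the Fn14 knockout (adjusted p = 4.34e-10). The knockouts differed by -1.96 ± 0.10, lower in the Fn14 knockout (adjusted p = 4.09e-14), and the TWEAK difference was 0.18 (adjusted p = 0.287). The whole span of CRIM1, introns included, shares 19331 bases of chromosome 2 with that of FEZ2 on the opposite strand. The sources used here do not give the strand setting of the counting, so how reads of the shared stretch were assigned is not known. FEZ2 held 912 to 3067 counts per library against 3056 to 17274 for CRIM1. Its own log2 differences were 0.77 in the Fn14α knockout, -0.73 in the Fn14 knockout and -0.01 with TWEAK. The other genes that overlap any of the 10 held at most 20 counts in a library.

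AXL (chr19:41219223-41261766, plus strand), a receptor tyrosine kinase that is a YAP target, was the most abundant of the 10 genes in every group. It stood at 122, 129, 124 and 116 TMM-scaled FPKM in WT, 149, 138, 162 and 142 with TWEAK, 157, 159, 158 and 159 in the Fn14α knockout and 172, 173, 191 and 173 in the Fn14 knockout. All 3 other groups were above every WT library. AXL rose by 0.27 ± 0.06 (log2) with TWEAK (edgeR adjusted p = 0.00544), by 0.37 ± 0.06 in the Fn14α knockout (adjusted p = 2.79e-05) and by 0.53 ± 0.06 in the Fn14 knockout (adjusted p = 8.58e-08). Between the knockouts it differed by 0.16 ± 0.06, higher in the Fn14 knockout (adjusted p = 0.0239). That difference was 0.01 under total-count scaling (adjusted p = 0.863), and it also missed the threshold with limma on log2(FPKM + 1) (0.861) or log2(FPKM + 0.1) (0.859) and with only the 2 knockouts in the fit (0.0504). The call ended as well without Fn14α knockout replicate 1 (0.0546) or 3 (0.0622) and without Fn14 knockout replicate 3 (0.0995), over a range of 5.49e-06 to 0.863.

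In order of level within a group, WT had AXL and CRIM1 at the top, then YAP1 and AMOTL2, whose libraries overlapped. Below them came AJUBA, LATS2, WWTR1 and ANKRD1, each overlapping the next, and then AMOTL1 and NUAK2, which overlapped as well. ANKRD1 was 8 of 10 in WT at 8.55 ± 1.16 TMM-scaled FPKM (SD, n = 4), 7 of 10 with TWEAK, 3 of 10 in the Fn14α knockout at 58.9 ± 2.23 and 2 of 10 in the Fn14 knockout at 136 ± 11.7. Among all genes tested, ANKRD1 moved from percentile 68.6 of level in WT to 96.1 and 98.3 in the knockouts. NUAK2 was last in WT and in the Fn14 knockout, where its percentile was 34.2, and 8 of 10 with TWEAK, where its percentile was 69.4.

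Each gene was also set beside the median log2 difference of up to 20 tested neighbours on either side. In the Fn14 knockout AMOTL2 differed from WT by 0.43 and its neighbours by a median of 0.44. The tested genes of chromosome 3 with at least 2 log2 CPM, the same minimum as for the neighbours, had a median of 0.38. Chromosome 3 carries AMOTL2 and WWTR1. Those of chromosome 13, which carries LATS2, had a median of 0.45. With the neighbours' median taken off, AMOTL2 was at -0.0087 in the Fn14 knockout (edgeR adjusted p = 0.927) and -0.11 between the knockouts (adjusted p = 0.152), so neither call stood. WWTR1 went from 0.69 to 0.48 (adjusted p = 1.51e-05), LATS2 from 0.59 to 0.40 (adjusted p = 0.000189) and CRIM1 from -1.16 to -0.81 (adjusted p = 2.13e-07). NUAK2, whose neighbours were higher by 0.47, went from -1.15 to -1.62, and ANKRD1 went from 3.99 to 4.08. YAP1 in the Fn14 knockout (0.22, adjusted p = 0.0256) and AMOTL1 in the Fn14α knockout (0.28, adjusted p = 0.0378) passed the threshold on this scale. AXL in the Fn14α knockout went from 0.37 to 0.23 (adjusted p = 0.00481), and between the knockouts from 0.16 to 0.41 (adjusted p = 5.49e-06). What the shift shared by neighbours comes from was not tested.

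**Figure D3:**
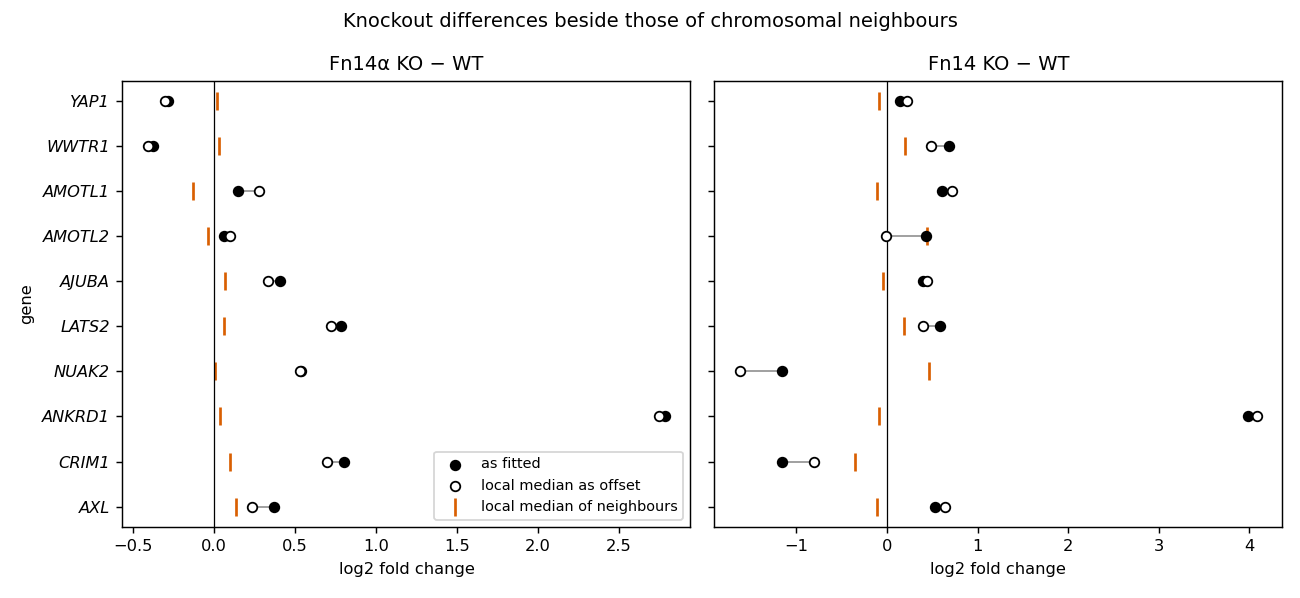
Log2 difference of each gene (y axis) from WT in the Fn14α knockout (left) and the Fn14 knockout (right), as fitted (filled), with the median of its chromosomal neighbours (orange bar) and after that median was taken off (open), on x axes of different range. In the Fn14 knockout AMOTL2 lies on its neighbours' median of 0.44, whereas ANKRD1 stays near 4 on both scales.

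The other genes of the pathway moved in both directions. Of 14 further genes of a published YAP and TAZ target signature, 13 were tested, since FOXF2 did not pass the filter. With TWEAK 4 rose and 1 fell, in the Fn14α knockout 5 rose and 2 fell, and in the Fn14 knockout 6 rose and 3 fell. These calls made up 38.5%, 53.8% and 69.2% of the 13 genes, beside 6.87%, 42.2% and 52.9% of all genes tested, so the knockout shares lay nearer to the background than the TWEAK share. Their median log2 differences were 0.20, 0.01 and 0.20. With TWEAK, DESeq2 called 4 higher and 1 lower, and limma 2 higher and 1 lower. Of the TWEAK calls, CCDC80 (higher, edgeR adjusted p = 0.0405) and F3 (lower, edgeR adjusted p = 0.0432) passed narrowly. The F3 groups overlapped in TMM-scaled FPKM. GADD45A, a stress-induced growth arrest gene, rose by 0.80 ± 0.08 with TWEAK (edgeR adjusted p = 2.02e-07), from 49.7 ± 6.42 to 86.6 ± 7.32 TMM-scaled FPKM (SD, n = 4). FJX1 rose by 0.59 and PTPN14, a phosphatase that binds YAP, by 0.44 with TWEAK. TGFB2, a ligand of the TGF-beta family, rose by 2.23 ± 0.16 in the Fn14α knockout (adjusted p = 4.49e-10) and 3.28 ± 0.16 in the Fn14 knockout (adjusted p = 3.59e-13). IGFBP3, which binds insulin-like growth factors, rose by 1.18 in the Fn14α knockout and differed by -2.15 between the knockouts, lower in the Fn14 knockout. NT5E fell by 0.61 and MYOF by 0.52 in the Fn14α knockout, while CCDC80 rose by 1.1 and PTPN14 by 1.17 in the Fn14 knockout. In that knockout the chromosomal neighbours had medians of 0.32 for TGFB2, 0.27 for CCDC80 and 0.36 for PTPN14.

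Of the 8 TEAD and VGLL genes, 6 were tested and VGLL1 and VGLL2 were not. With TWEAK 0 of the 6 passed in edgeR, DESeq2 or limma, and 1 was higher at an unadjusted edgeR p under 0.05. In the Fn14α knockout 3 rose and 3 fell, and in the Fn14 knockout 3 rose and 2 fell, beside 42.2% and 52.9% of all genes called in the same comparisons. TEAD1 rose by 0.78 ± 0.11 in the Fn14α knockout (edgeR adjusted p = 1.01e-05) and 0.89 ± 0.11 in the Fn14 knockout (adjusted p = 1.08e-06). TEAD2 fell by 0.27 and 1.35 in the same order, and by 1.08 from one knockout to the other. In TMM-scaled FPKM, TEAD1 averaged 10.5 ± 1.32 (SD, n = 4) in WT, 18 ± 1.67 in the Fn14α knockout and 19.4 ± 3.57 in the Fn14 knockout, and TEAD2 averaged 9.99 ± 0.92, 8.31 ± 0.25 and 3.93 ± 0.52. VGLL3, a cofactor that binds TEAD factors, rose by 0.64 and 0.83, the latter beside a neighbours' median of 0.28. TEAD4 fell by 0.69 in the Fn14 knockout, where its chromosomal neighbours had a median of -0.63.

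The 16 genes of the Hippo kinase module and its upstream regulators were all tested. With TWEAK 2 rose and 0 fell in edgeR, WWC2 by 0.40 and WWC1 by 0.33, both scaffold proteins that activate LATS kinases. DESeq2 called 4 higher and limma 0, and at an unadjusted edgeR p under 0.05 the counts were 7 higher and 0 lower. In the Fn14α knockout 4 rose and 5 fell, with WWC1 at 0.80 ± 0.10 (edgeR adjusted p = 3.36e-07) and the kinase TAOK3 at -0.92 ± 0.09 (adjusted p = 3.25e-08), beside a neighbours' median of -0.50. In the Fn14 knockout 6 rose and 4 fell, with FRMD6 at 0.89 ± 0.09 (adjusted p = 1.21e-08) and NF2, the membrane scaffold merlin, at 0.59 ± 0.07 (adjusted p = 3.05e-07), beside a neighbours' median of 0.41. The calls made up 12.5% of the 16 genes with TWEAK, 56.2% in the Fn14α knockout and 62.5% in the Fn14 knockout, beside the 6.87%, 42.2% and 52.9% of all genes. WWC1 was lower in the Fn14 knockout than in the Fn14α knockout, at -1.15 ± 0.10 (adjusted p = 6.20e-10). The medians of these 16 genes were 0.12 with TWEAK, 0.04 in the Fn14α knockout and 0.09 in the Fn14 knockout.

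Relatives of the angiomotins and AJUBA are AMOT, LIMD1 and WTIP, of which 0 passed with TWEAK in edgeR, DESeq2 or limma, nor at an unadjusted edgeR p under 0.05. In the Fn14α knockout AMOT fell by 1.00 ± 0.16 (edgeR adjusted p = 1.51e-05), beside a neighbours' median of -0.91, LIMD1 fell by 0.22, and WTIP rose by 0.52. In the Fn14 knockout LIMD1 rose by 0.54, beside a neighbours' median of 0.59, AMOT rose by 0.36, and WTIP fell by 0.36. All 3 were thus called in both knockouts, where 42.2% and 52.9% of all genes were. The relatives and ligands of AXL are TYRO3, MERTK, GAS6 and PROS1, and 0 of the 4 passed with TWEAK in edgeR, DESeq2 or limma, while 1 was lower at an unadjusted edgeR p under 0.05. GAS6, the ligand that activates AXL, averaged 9.90 ± 0.58 TMM-scaled FPKM (SD, n = 4) in WT, 8.82 ± 0.14 with TWEAK, 9.96 ± 0.26 in the Fn14α knockout and 68.6 ± 8.36 in the Fn14 knockout. It rose by 2.79 ± 0.08 (log2) in the Fn14 knockout (adjusted p = 2.99e-19), where its neighbours had a median of 1.09. The receptor MERTK fell by 1.14 in the Fn14 knockout, beside a neighbours' median of -0.63, and PROS1, a ligand of TYRO3 and MERTK, fell by 0.91 in the Fn14α knockout. Of these 4 genes 25% were called in the Fn14α knockout and 75% in the Fn14 knockout. From the Fn14α to the Fn14 knockout, 7 of the 13 further signature genes were higher and 2 lower, 1 of the 6 TEAD and VGLL genes higher and 2 lower, and 8 of the 16 Hippo genes higher and 6 lower. Of the relatives of angiomotins and AJUBA 2 were higher and 1 lower, and of the relatives and ligands of AXL 3 were higher and 1 lower. Of all genes 59.2% were called in this comparison, and the shares of the signature genes (69.2%) and of the TEAD and VGLL genes (50%) lay near it. The share was 87.5% for the Hippo genes and 100% for each of the 2 small lists of relatives.

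**Figure D4:**
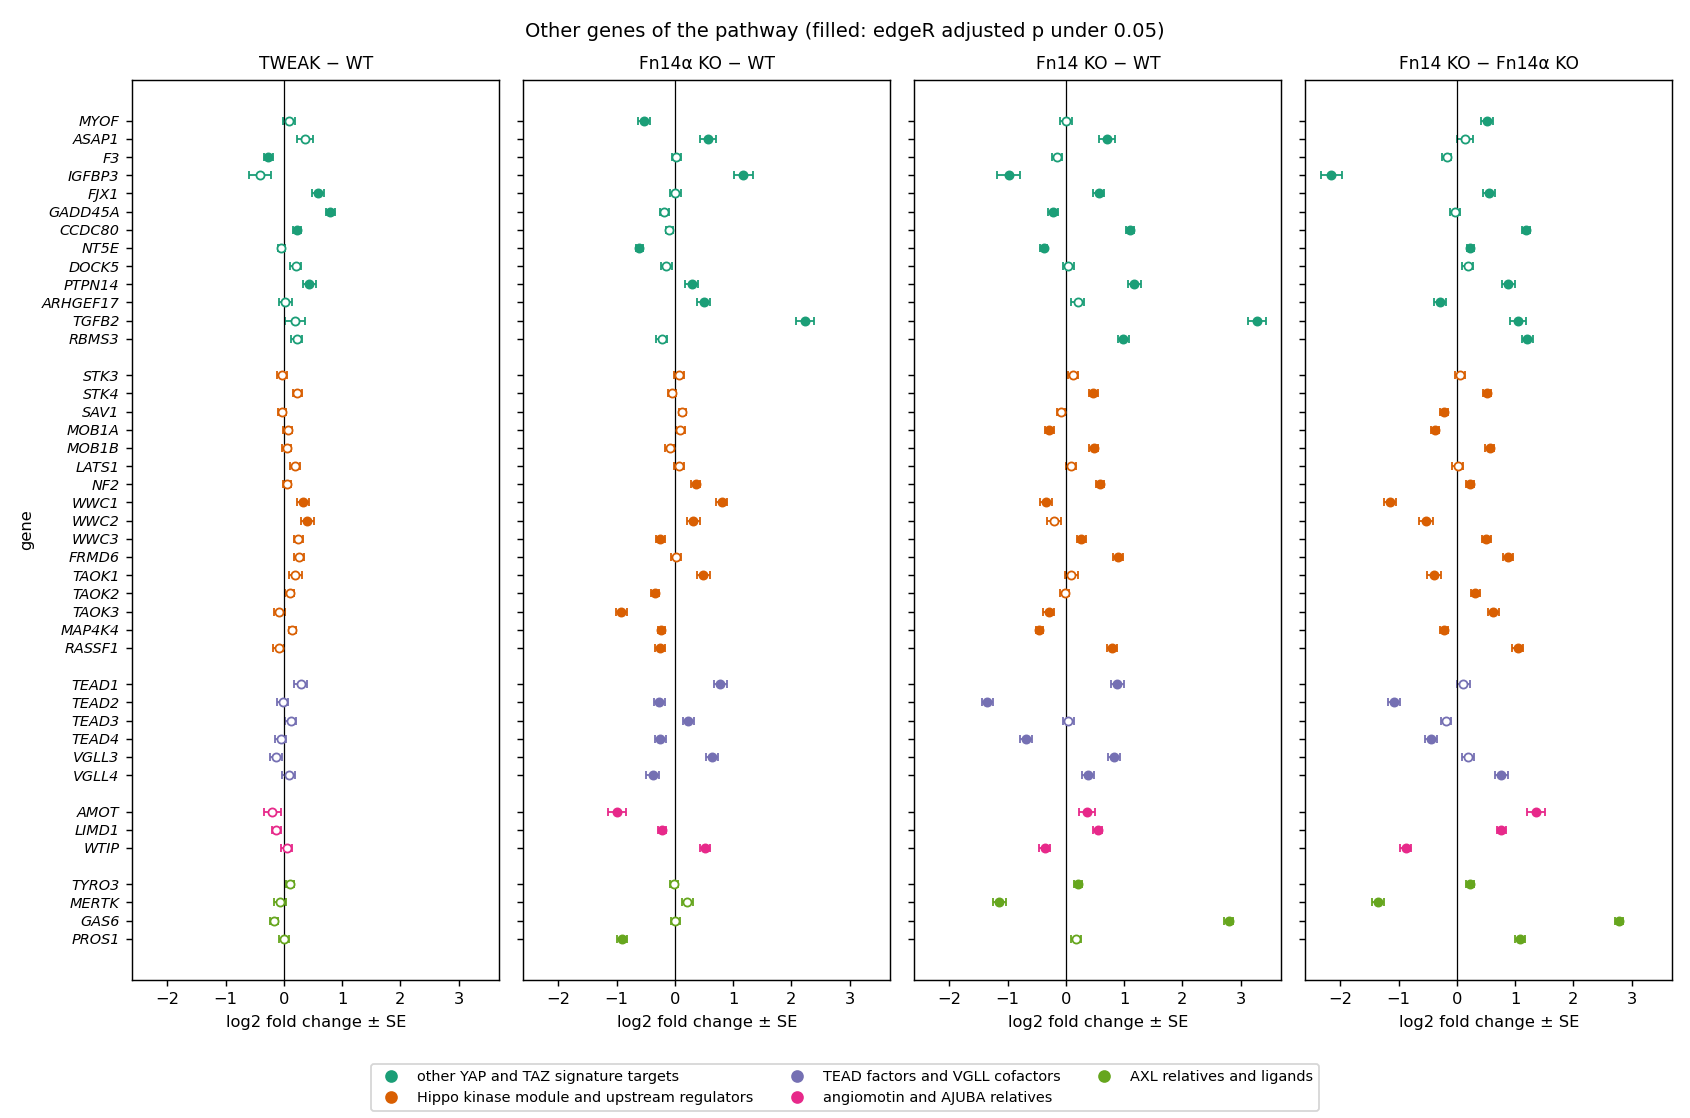
Log2 fold changes (x axes, ± SE from edgeR) of the other pathway genes tested (y axis), 1 panel per comparison, coloured by list and filled for an adjusted p under 0.05. GAS6 at 2.79 and TGFB2 at 3.28 lie farthest to the right in the Fn14 knockout.

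For the 4 of the 10 genes whose group means spanned at least 1 on the log2 CPM scale, the genes with the most similar course over the 16 libraries were sought by the root mean square difference of centred log2 CPM. ANKRD1 was nearest to TGFB2 (0.42) and RGS4 (0.45), and RGS4 averaged 2.15, 1.5, 11.7 and 43 TMM-scaled FPKM in WT, TWEAK, the Fn14α knockout and the Fn14 knockout. NUAK2 was nearest to IL7R (0.20), which averaged 16.4, 42.7, 20.3 and 8.12 in the same order, and to RNF207 (0.21). CRIM1 was nearest to ADGRL2 (0.14) and KLHL15 (0.18), and KLHL15 averaged 3.23, 3.22, 6.54 and 1.41. WWTR1 was nearest to ATP6AP2 (0.10) and HSPA13 (0.11), and ATP6AP2 averaged 16, 14.5, 11.9 and 26.4. The differences of the genes nearest to ANKRD1 were the widest of the 4, as was the span of its group means, 3.98 on the log2 CPM scale.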

How the data were processed

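Poly(A) RNA of 16 LX-2 libraries in 4 groups of 4 was used. The table the authors deposited holds raw read counts per gene with no normalization, and FPKM, per the file headers. Recomputing FPKM from these counts, the deposited exonic sizes and the total counts gave the authors' values within 0.005. The submitters' processing notes name HISAT2 2.0.1, HTSeq 0.6.1, cutadapt 1.9.1, FastQC 0.10.1, DESeq2 and the builds GRCh38.p13 and hg38. The sources used here do not give the strand setting or the annotation release. Libraries were grouped by the labels' genotype and treatment.

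Counts were tested with edgeR 4.0.16 in R 4.3.3 (quasi-likelihood, two-sided, TMM, filterByExpr with a minimum count of 10, robust, 1 mean per group over all 16 libraries). Calls needed a Benjamini-Hochberg adjusted p under 0.05 over 16029 genes. The SE is the log2 fold change divided by the square root of F, and 95% intervals use 12 residual degrees of freedom. Levels were rescaled to FPKM with TMM factors, because scaling to the library total shifted the median gene by -0.12 in the Fn14 knockout against WT. Total counts were 13335919 to 16888606, and the 24 replicate pairs differed by more than sampling noise (chi-square per degree of freedom 2.30 to 39.0). The code was tested on simulated data, and its pass mark for recovered genes was lowered after DESeq2 had missed the first one.

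Alternatives were RLE factors, total counts, DESeq2 1.42.0, no filter, 2 groups only, limma 3.58.1 on log2(FPKM + 1) and log2(FPKM + 0.1), the replicate block, the neighbours' median as an offset (20 genes of at least 2 log2 CPM on either side), each library left out, and 2 libraries left out together. Named were the 10 genes, TNFRSF12A and the 2 nearest genes of each of the 10 that spanned at least 1 log2 CPM. From each list and comparison, genes were named out of the 4 called genes with the smallest adjusted p, and not all of these are given. Markers, FEZ2 and the neighbours of YAP1 were added for checks. The genes and lists were chosen with earlier results of these data known. Upstream sequences are from RefSeq. Plots used Python 3.11.15 and matplotlib 3.10.9.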

Additional observations from a re-analysis of the deposited data

Results flagged for a closer look

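AXL in Fn14 knockout replicate 3 stood at 191 TMM-scaled FPKM, while the other 3 libraries of the group lay between 172 and 173. The gap to the nearest library divided by the group's range was 0.951. Of 40 groups of 4 libraries examined (10 genes in 4 groups), this was the 1 with such a gap, and chance gives about 1 in 20, or about 2 among 40, so 1 is no more than chance gives. Without this library AXL was above WT by 0.50 on the log2 scale (edgeR adjusted p = 1.01e-06), and its difference between the knockouts was 0.13 (edgeR adjusted p = 0.0995).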

How the results depend on the processing

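Of the 40 differences (10 genes in 4 comparisons), 31 kept their direction and their side of the threshold under all 18 alternatives that apply to each, and the counts of genes called stayed within 1.5 times. ANKRD1, CRIM1, NUAK2, WWTR1, LATS2, AJUBA and AXL kept every call against WT. YAP1 with TWEAK was -0.0066 under total counts, -0.0048 with limma on log2(FPKM + 1) and -0.0049 on log2(FPKM + 0.1). With the neighbours' median as an offset, AMOTL2 was -0.0087 in the Fn14 knockout and -0.11 between the knockouts, and AJUBA between the knockouts was 0.11. AJUBA between the knockouts was 0.011 with no filter and -0.036 to 0.017 with each library left out. Between the knockouts, total-count scaling shifted the median gene by -0.15 and gave 0.27 for YAP1 and 0.22 for AMOTL2 (limma gave 0.27 for AMOTL1), all still called. The share of called genes that were higher went from 70.2% to 43.9% with TWEAK, from 50.2% to 36% in the Fn14 knockout and from 51.9% to 37.3% between the knockouts under total counts, and limma gave 44.4%, 36.2% and 37.2%.

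With the replicate number as a block, 893, 6454, 8205 and 9241 genes were called with TWEAK, in the Fn14α knockout, in the Fn14 knockout and between the knockouts, against 1101, 6771, 8472 and 9489 without it. To look for pairing, each gene's group mean was first taken off its log2 CPM. What was left correlated at -0.228 to 0.108 between same-numbered libraries over 16 pairs, and 1 of 16 was best matched by its own number. These values show no pairing by number, but cannot tell whether same-numbered samples were handled together. The block ended the calls of AMOTL1 with TWEAK and of LATS2 between the knockouts. With 56 to 506 counts, NUAK2 was the gene with the fewest reads.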

Other observations

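YAP1 lies beside a pair of NF-kB target genes on chromosome 11 that encode inhibitors of apoptosis: BIRC3 starts 84026 bases and BIRC2 113787 bases after the end of YAP1, on the same strand. With TWEAK, BIRC3 rose by 3.5 ± 0.11 (log2, edgeR adjusted p = 1.48e-16) and BIRC2 by 1.27 ± 0.08 (adjusted p = 3.15e-11), while YAP1 differed by 0.05 ± 0.08 (adjusted p = 0.754). In the Fn14 knockout BIRC3 fell by 2.56 ± 0.13 (adjusted p = 1.28e-13), and BIRC2 and YAP1 differed from WT by -0.12 and 0.14, neither past the threshold. In the Fn14α knockout all 3 passed, with BIRC3 higher by 0.37 ± 0.11 (adjusted p = 0.00616), BIRC2 higher by 0.34 ± 0.08 (adjusted p = 0.00124) and YAP1 lower, at -0.28 ± 0.08 (adjusted p = 0.00566). These genes were looked at after their values had been seen.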
